A study of Mus musculus with 4 samples.

Results

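A group of macrophages that carried the transcripts of Saa3, Arg1 and Fn1 together was examined in single-cell RNA sequencing of the infarcted mouse heart. A cell was counted in the group when it held at least 5 Saa3, at least 2 Arg1 and at least 5 Fn1 unique molecular identifiers (UMIs, each standing for a captured transcript). The cells were thus chosen by their Saa3, Arg1 and Fn1 counts, and these 3 genes are described without a test. The rule found 1397 cells among 31295 infarct cells, and the 4 libraries together held 41533 cells with 500 to 40000 UMIs and over 200 genes. The cells had been sorted from enzymatically digested hearts of 12 to 16 week old CSF1R-EGFP reporter mice as EGFP-positive, Ly6G-negative singlets. In this line the Csf1r promoter drives EGFP, so the sort takes monocytes, macrophages and any other cell in which that promoter is active. The infarct group held 3 libraries of 1 heart each, taken 7 days after ligation of the left coronary artery. The baseline group was 1 library of 3 pooled hearts from mice of the same line that had no surgery. Below, "Saa3 Arg1 Fn1 cells" are the cells that met the rule, and values for the 3 infarcts are given in the order of infarct replicates 1, 2 and 3.

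Saa3 encodes serum amyloid A3, an acute-phase protein that macrophages make at sites of inflammation. Arg1 encodes arginase 1, which turns arginine into ornithine and so draws on the arginine that nitric oxide synthase also uses. Fn1 encodes fibronectin, a matrix protein of the early infarct scar and a ligand of several integrins. Macrophages of the peritoneal, pleural and pericardial cavities form a separate tissue population, known for the transcription factor GATA6, for fibronectin and for the surface proteins ICAM2 and P-selectin. C1qa, C1qb and C1qc, the chains of complement C1q, mark most differentiated macrophages of the heart and are low in blood monocytes.

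In the mouse genome (GRCm38, GENCODE M21) Saa3 lies on chromosome 7 from 46711998 to 46715700, Arg1 on chromosome 10 from 24915221 to 24927484 and Fn1 on chromosome 1 from 71585520 to 71653200, all on the minus strand. The promoter of Saa3 is shown because it is the transcript that leads the rule. The 250 bases before its RefSeq start (GRCm38.p6, chr7:46715677-46715926, minus strand) read, 5′ to 3′, with a match to the C/EBP motif TTGCNNAA in capitals:
Saa3 promoter: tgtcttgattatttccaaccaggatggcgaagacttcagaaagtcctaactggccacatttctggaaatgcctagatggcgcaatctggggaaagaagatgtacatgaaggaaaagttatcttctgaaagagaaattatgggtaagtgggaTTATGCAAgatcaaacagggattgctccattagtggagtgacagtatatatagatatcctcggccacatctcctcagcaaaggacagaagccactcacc
The match begins 99 bases before the start, and a match to the GATA motif AGATAA begins 134 bases before it. Matches were sought on both strands and the 2 do not overlap. Among 27025 promoters of this length, 9.55% held the C/EBP letters and 10.3% the GATA letters. The letters of a HIF motif (ACGTG, in 16.6% of promoters) and of a STAT motif (TTCNNNGAA, in 7.18%) were not found in this window.

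Saa3 Arg1 Fn1 cells were found in every infarct and not in the baseline heart, and their share differed widely between infarcts. The rule took 871 of 10396 cells in infarct 1, 67 of 10782 in infarct 2 and 459 of 10117 in infarct 3. These are shares of 8.38% (exact 95% binomial interval 7.85 to 8.93), 0.621% (0.482 to 0.789) and 4.54% (4.14 to 4.96), with a mean of 4.51% ± 3.88 (SD, n = 3). The intervals do not overlap, so the spread between hearts was larger than counting error, and infarct 2 had the fewest of these cells. In the baseline library 0 of 10238 cells met the rule, which allows a share of up to 0.0293% by a limit of 3 counts, and up to 0.0360% by the exact 95% binomial interval. With minimums of 3, 1 and 3 UMIs in place of 5, 2 and 5, 2 baseline cells met it. Baseline was 1 library, so infarct and baseline were not compared by a test, and all intervals cover counting error only.

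**Figure D1:**
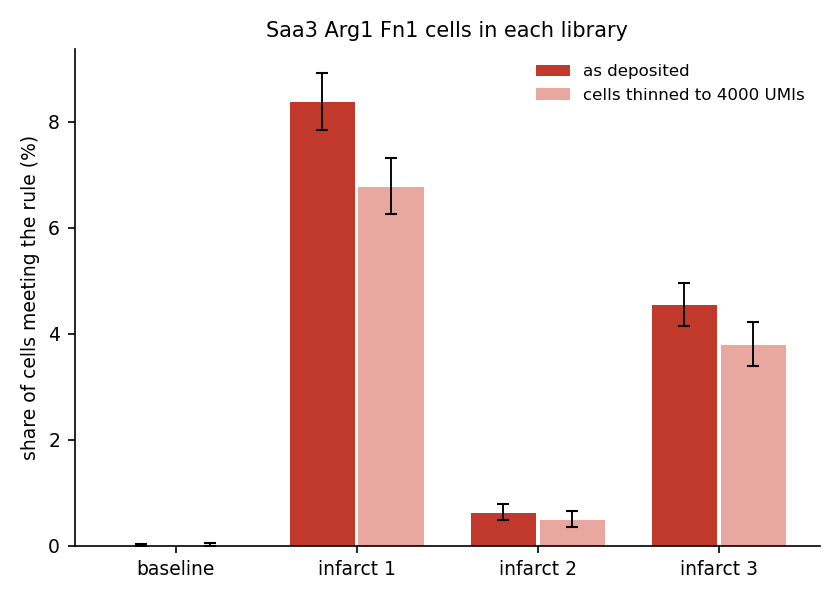
Share of cells meeting the rule (%, vertical axis) in the baseline library and in each infarct, as deposited and with every cell thinned to 4000 UMIs. Bars are shares and lines are exact 95% binomial intervals: infarct 1 stands highest at 8.38%, infarct 2 lowest among infarcts at 0.621%, and baseline is at 0.

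The order of the infarcts was the same at equal depth. Median UMIs per cell over whole libraries were 8556.5, 8469.5 and 8504 in the infarcts and 6398.5 at baseline. With each cell of at least 4000 UMIs thinned to 4000, the shares were 6.77%, 0.485% and 3.79%. Among the Saa3 Arg1 Fn1 cells themselves the median was 7850, 9614 and 10257 UMIs, so those of infarct 1 were the shallowest. Pairs of libraries shared 26 to 34 cell barcodes, and no pair shared a barcode that met the rule in both. The deposited matrices had been made with Cell Ranger, and 41533 of their 41686 barcodes passed the filter on UMIs and genes.

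Saa3 was found more often in cells with Arg1 than in cells without, as the values that chose the cells show. Cells with at least 2 Arg1 UMIs made up 16.8%, 4.38% and 9.55% of the infarct libraries. Of them 51.7%, 14.2% and 50.3% also held at least 5 Saa3 UMIs, against 1.72%, 0.183% and 0.863% of the cells with no Arg1 UMI. In infarct 2, then, most Arg1-positive cells were below the Saa3 minimum, whereas in the other infarcts about as many passed it as did not. The cells with at least 2 Arg1 UMIs were also deeper, with medians of 8978, 11826.5 and 9660 UMIs. Cells with no Arg1 UMI had medians of 8416, 8339 and 8401 UMIs. Both minimums are raw counts, and these shares were not repeated at equal depth. Inside the group the median cell held 70, 41 and 47 Saa3 UMIs, 19, 27 and 15 Arg1 UMIs and 51, 73 and 59 Fn1 UMIs. Few cells lay close to the limits: 65 cells had exactly 2 Arg1 UMIs and 83 had 1 while passing the other minimums. At the Saa3 limit 30 cells had 5 UMIs and 40 had 4. Cells with 2 Arg1 UMIs carried Gata6, Selp, Icam2 or Prg4 in 26.2% of cases and those with 1 in 18.1%. At the Saa3 limit these shares were 30% inside and 20% outside. At the Fn1 limit the order was reversed, with 27.3% of 11 cells inside and 36.4% of 11 outside. These values lie on both sides of a limit that was chosen and are a description.

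Most Saa3 Arg1 Fn1 cells were C1q-positive macrophages, and they were compared with 20490 cells of the same infarcts that had no Arg1 UMI, at most 1 Saa3 UMI and at least 30 C1q UMIs (C1qa, C1qb and C1qc) per 10000. These are called C1q-high cells here and numbered 5402, 8315 and 6773. The same C1q level was reached by 86.6%, 79.1% and 90.8% of the Saa3 Arg1 Fn1 cells. Their counts were summed per library, and levels are given as CPM, counts per 1000000 of those sums, with mitochondrial genes left out. In the Saa3 Arg1 Fn1 cells Saa3 stood at 14522, 7632 and 7659 CPM, Arg1 at 3309.8, 3516 and 2453 CPM and Fn1 at 8111, 8629 and 7308 CPM. In C1q-high cells Fn1 was at 305, 139 and 162 CPM, and in the Ly6c2 cells described below at 1237, 1001 and 1116 CPM. B cells of the same libraries (17, 6 and 22 cells with at least 3 Cd79a UMIs and little C1q), which should lack Saa3, held it at 235, 19.4 and 55 CPM, far under the Saa3 Arg1 Fn1 cells of the same infarct.

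Genes of macrophage identity were present in the cells, as their label asks. Csf1r, the receptor whose promoter drives the reporter, was at 817, 546 and 622 CPM against 843, 826 and 857 CPM in C1q-high cells. Adgre1, the surface antigen F4/80, was at 410.3, 318 and 308 CPM against 644, 639 and 580.5 CPM, and Lyz2, the macrophage lysozyme, at 14425, 11659 and 17047 CPM against 12845, 13947 and 15115 CPM. The groups overlapped for Lyz2. Marco, a scavenger receptor for bacteria and particles, and Slpi, a secreted inhibitor of neutrophil elastase, had been named with these cells and are described without a test. Marco was at 185, 1767 and 864 CPM against 1.66, 1.69 and 3.36 CPM in C1q-high cells, and Slpi at 562, 1822 and 1752 CPM against 4.79, 3.99 and 6.51 CPM. Both were high in the Saa3 Arg1 Fn1 cells of every infarct. A Marco UMI was found in only 14.4, 64.2 and 43.6% of these cells, so in infarct 1 most of them had none. No Marco UMI was seen in the B cells, whose sums were too small to show a level as low as that of C1q-high cells.

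Markers of mesothelial, T and NK and dendritic cells were low in these cells, while the highest granulocyte, fibroblast and endothelial sums lay above those of C1q-high cells. The 8 mesothelial markers summed to 0 to 0.995 CPM, with Msln, Upk3b, Upk1b, Krt19, Lrrn4 and Muc16 at 0 UMIs, and the 6 T and NK cell markers summed to 0 to 0.398 CPM. The 10 granulocyte markers summed to 61.5 to 118 CPM against 63.5 to 76.8 CPM in C1q-high cells, with Ly6g at 0 UMIs. The 7 dendritic cell markers summed to 1.46 to 12.5 CPM against 12.9 to 19.6 CPM. The 8 fibroblast markers summed to 17.6 to 227 CPM against 59.2 to 91.5 CPM, and the 8 endothelial markers to 11.7 to 104 CPM against 32.4 to 32.6 CPM. The fibroblast sum was highest in infarct 3. Most of the endothelial sum was Fabp4, which macrophages also express and which was at 83.6, 11.7 and 77.4 CPM. Among the cells that a doublet score would remove were 13.3%, 5.97% and 6.75% of the Saa3 Arg1 Fn1 cells, against 8.32%, 8.63% and 8.1% of all cells of their libraries.

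About as many Saa3 Arg1 Fn1 cells carried a transcript of Gata6, Selp, Icam2 or Prg4 as did not, while few C1q-high cells did. Gata6 encodes the transcription factor that large peritoneal macrophages require, Selp the adhesion molecule P-selectin, Icam2 the ligand of leukocyte integrins known as CD102, and Prg4 the lubricating proteoglycan 4. At least 1 UMI of the 4 genes was present in 395 of 871, 41 of 67 and 261 of 459 cells. These are 45.4% (42.0 to 48.7), 61.2% (48.5 to 72.9) and 56.9% (52.2 to 61.4), with a mean of 54.5% ± 8.19 (SD, n = 3). In C1q-high cells of similar depth (median 8528, 8427 and 8616 UMIs) the shares were 5.09%, 4.53% and 6.73%. With cells thinned to 4000 UMIs, which left out 159, 7 and 51 shallower Saa3 Arg1 Fn1 cells, the shares were 36.7%, 50% and 44.6% against 2.35%, 1.88% and 2.93%. The groups did not overlap at either depth. No test was made on the shares, because 3 pairs cannot give an exact sign-flip p below 0.25.

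Each of the 4 genes was found in a higher share of Saa3 Arg1 Fn1 cells than of C1q-high cells in every infarct. Gata6 was seen in 6.20, 16.4 and 15.3% of them and in 0.352, 0.373 and 0.62% of C1q-high cells. For Selp the shares were 12.7, 20.9 and 25.1% and 0.167, 0.0601 and 0.103%, and for Prg4 29, 41.8 and 30.1% and 0.426, 0.156 and 0.472%. Icam2 was the least selective, with 26.6, 44.8 and 41.4% and 4.24, 3.96 and 5.55%, and it was also present in 23.5, 16.7 and 27.3% of the B cells. Any of Gata6, Selp and Prg4 was found in 33.1%, 46.3% and 42.7% of the Saa3 Arg1 Fn1 cells, in 0.944%, 0.589% and 1.2% of C1q-high cells and in none of the 45 B cells, whose median depth was 2864, 9510.5 and 6608 UMIs. At least 2 of the 4 genes were detected together in 19.5%, 34.3% and 32.9% of the Saa3 Arg1 Fn1 cells and in 5 of 5402, 1 of 8315 and 1 of 6773 C1q-high cells. In baseline C1q-high cells, from the pooled hearts without surgery, at least 1 of the 4 genes was found in 262 of 6644 cells (3.94%).

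**Figure D2:**
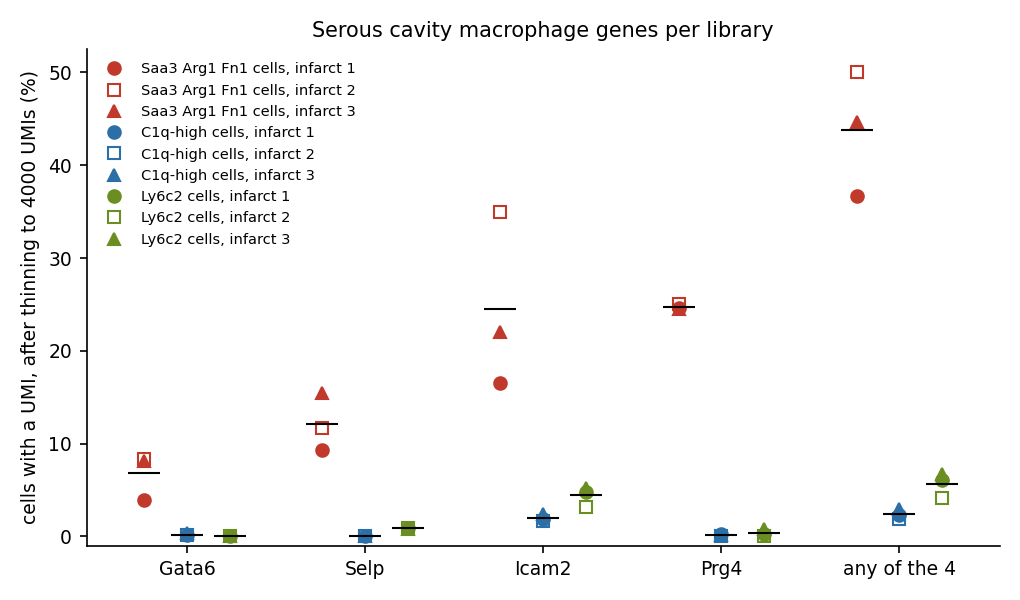
Percentage of cells with a UMI of each gene after thinning to 4000 UMIs (vertical axis), for Saa3 Arg1 Fn1 cells, C1q-high cells and Ly6c2 cells of each infarct. Symbols are infarcts and lines are means: for any of the 4 genes the Saa3 Arg1 Fn1 cells lie between 36.7% and 50% and the C1q-high cells between 1.88% and 2.93%.

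Summed counts were then tested across the 3 infarcts to ask which other genes set the Saa3 Arg1 Fn1 cells apart from C1q-high cells. The test was edgeR's quasi-likelihood test with the infarct as a block and an adjusted p under 0.01 over 12422 genes, from which the genes of the rule, Marco and Slpi were left out. It called 2789 genes (22.5% of those tested), 1542 higher (12.4%) and 1247 lower (10%), and the median log2 fold change over all genes was -0.05. Without infarct 2 the count was 1435 and without infarct 3 it was 1847. Genes known from serous cavity macrophages, coagulation factors, glycolytic enzymes and acute-phase proteins were among those higher, and MHC class II and reparative macrophage genes among those lower. Of all genes tested, 53.7% had levels that did not overlap between the groups, so an absence of overlap alone says little about a gene. The shares of 12.4% higher and 10% lower are the background for every list count against C1q-high cells below. Genes nearly absent from C1q-high cells passed the count filter only through the Saa3 Arg1 Fn1 cells, and a lower call was not open to them.

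**Figure D3:**
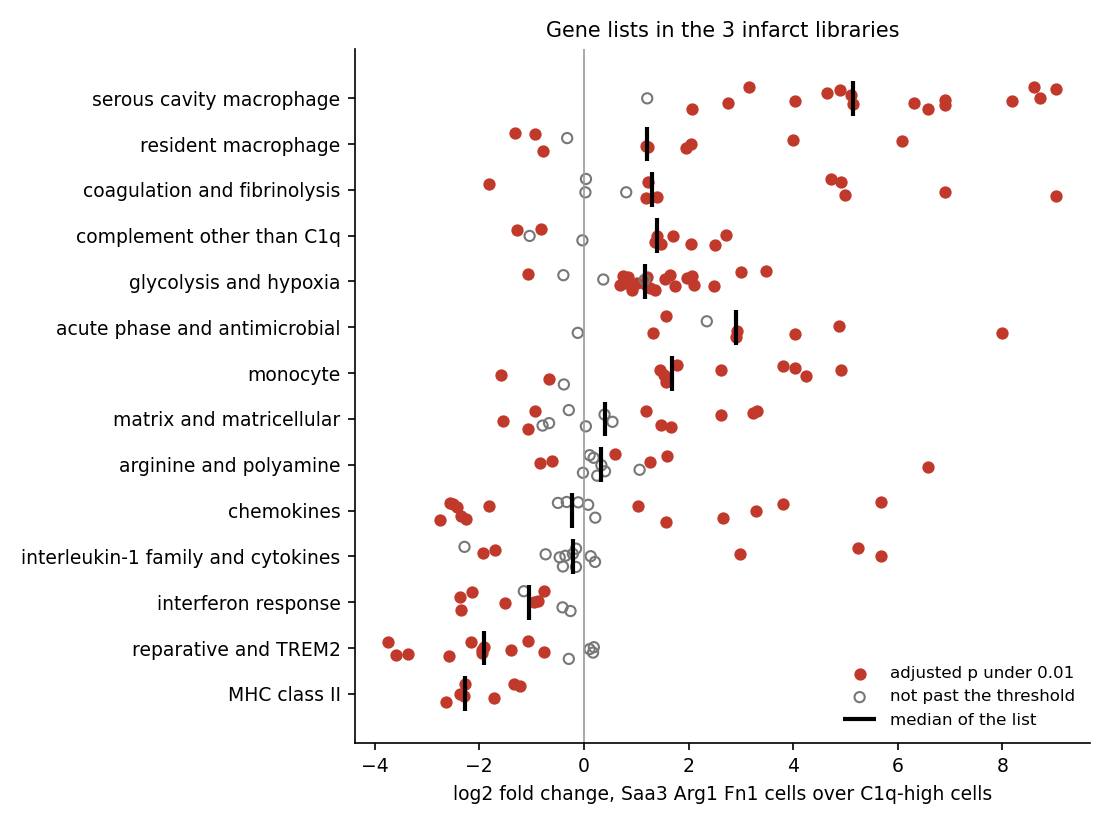
Log2 fold change of Saa3 Arg1 Fn1 cells over C1q-high cells (horizontal axis) for the tested genes of 14 lists (rows), each point a gene, filled where adjusted p is under 0.01, with list medians as bars. The serous cavity list has its median at 5.15, the MHC class II list at -2.27.

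Of 17 genes of the serous cavity macrophage list, 16 were higher in the Saa3 Arg1 Fn1 cells and 1, Garnl3, did not pass the threshold, with a list median of 5.15 on the log2 scale. The list was chosen with earlier results of these data known, so its count and p-values describe the cells and are no independent support. Genes as low in C1q-high cells as Selp passed the count filter only through the Saa3 Arg1 Fn1 cells. Prg4 was at 219, 184 and 216 CPM, an even level across infarcts, against 0.546, 0.226 and 0.595 CPM in C1q-high cells (log2 fold change 8.71 ± 0.20 (SE), edgeR adjusted p = 2.75e-10). Serpinb2, plasminogen activator inhibitor 2, was at 63.5, 347 and 273 CPM against 0.306, 0.268 and 0.543 CPM (log2 fold change 9.03 ± 0.30 (SE), edgeR adjusted p = 2.65e-09). Among the cells it was lowest in infarct 1, yet the groups did not overlap. Alox15, the 12/15-lipoxygenase that makes lipid mediators in peritoneal macrophages, was at 114, 45.4 and 182 CPM against 0.372, 0.0141 and 0.455 CPM (log2 fold change 8.61 ± 0.27 (SE), edgeR adjusted p = 1.43e-09). Selp stood at 28.8, 55.6 and 59.9 CPM against 0.197, 0.0846 and 0.158 CPM (log2 fold change 8.19 ± 0.30 (SE), edgeR adjusted p = 5.57e-09). Gata6 itself was a low transcript, at 10.3, 33.7 and 24.7 CPM against 0.415, 0.451 and 0.753 CPM (log2 fold change 5.11 ± 0.33 (SE), edgeR adjusted p = 4.82e-07), and it did not overlap between the groups.

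Other genes of the list followed the same direction at lower or more variable levels. Icam2 was at 72, 142 and 116 CPM against 5.20, 5.05 and 7.19 CPM (log2 fold change 4.03 ± 0.17 (SE), edgeR adjusted p = 1.34e-08). Padi4, a peptidylarginine deiminase, was at 152, 111 and 148 CPM and F5, coagulation factor V, at 64.7, 104 and 108 CPM, with log2 fold changes of 6.91 ± 0.28 and 6.90 ± 0.18 (SE). Rarb, a retinoic acid receptor, was close to even at 18.6, 22 and 18.5 CPM against 0.24, 0.113 and 0.193 CPM (log2 fold change 6.57 ± 0.35 (SE), edgeR adjusted p = 9.46e-08). Timd4 and Vsig4, receptors of long-lived tissue macrophages, varied more between infarcts. Timd4 was at 3.99, 26.4 and 31.9 CPM and Vsig4 at 18.3, 26.4 and 67.1 CPM, with log2 fold changes of 5.15 ± 0.45 and 4.89 ± 0.29 (SE). Cxcl13, a B cell attractant made by cavity macrophages, was at 21.5, 1.46 and 45.6 CPM against 3.47, 0.395 and 5.22 CPM (log2 fold change 2.76 ± 0.22 (SE), edgeR adjusted p = 2.70e-06). It was low in both groups of infarct 2, and its call was lost when the cells with a UMI of Gata6, Selp, Icam2 or Prg4 were taken out (edgeR adjusted p = 0.173). With those cells taken out, 12 of the 17 genes were tested, of which 8 were higher and 1 was lower. Gata6, Selp, Icam2 and Prg4 were left out of that fit because they chose the cells.

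The genes with the highest folds outside this list included several secreted proteins. Wfdc21, a small secreted protein of the whey acidic protein family, was at 83.9, 151 and 82.6 CPM against 0.459, 0.381 and 0.263 CPM (log2 fold change 7.99 ± 0.20 (SE), edgeR adjusted p = 2.75e-10). Prtn3, the serine protease proteinase 3, was at 408, 202 and 374 CPM against 4.33, 1.04 and 2.59 CPM (log2 fold change 6.92 ± 0.19 (SE), edgeR adjusted p = 4.46e-10). Fcna, the lectin ficolin A, was at 366, 268 and 305 CPM against 4.90, 2.62 and 4.66 CPM (log2 fold change 6.15 ± 0.15 (SE), edgeR adjusted p = 2.75e-10). Each was high in all 3 infarcts, and the groups did not overlap. Jam2, a junctional adhesion molecule, had a log2 fold change of 7.23 ± 0.22, Car6, a secreted carbonic anhydrase, 7.12 ± 0.22, Lrg1, a leucine-rich glycoprotein, 6.26 ± 0.24, Mlxipl, the carbohydrate response factor ChREBP, 6.44 ± 0.39, and Fabp7, a fatty acid binding protein, 6.23 ± 0.31 (SE, edgeR). Cd5l, an apoptosis inhibitor secreted by tissue macrophages, was at 624, 763 and 592 CPM against 16.9, 12.5 and 12.4 CPM (log2 fold change 5.42 ± 0.16 (SE), edgeR adjusted p = 1.01e-09).

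**Figure D4:**
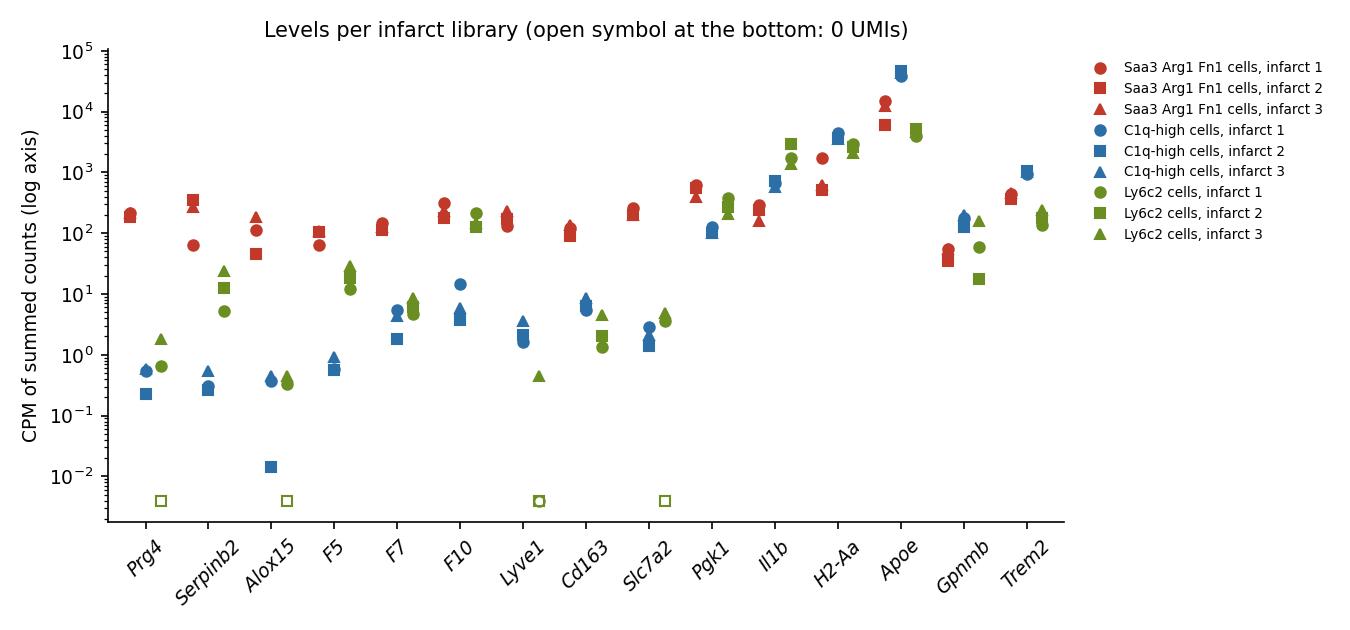
Levels (CPM of summed counts, log axis) of 15 genes in Saa3 Arg1 Fn1 cells, C1q-high cells and Ly6c2 cells, each symbol an infarct and open symbols at the bottom 0 UMIs. Prg4 to Slc7a2 are highest in the Saa3 Arg1 Fn1 cells of every infarct, with F10 close to them in Ly6c2 cells, whereas H2-Aa, Apoe, Gpnmb and Trem2 are highest in C1q-high cells of every infarct.

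Genes that mark resident macrophages of the heart divided into a higher and a lower set. Of 10 such genes, 6 were higher and 3 lower than in C1q-high cells, with a median of 1.21. Lyve1, the hyaluronan receptor, was at 132, 171 and 231 CPM against 1.60, 2.10 and 3.54 CPM (log2 fold change 6.09 ± 0.15 (SE), edgeR adjusted p = 2.75e-10). Cd163, the haemoglobin scavenger receptor, was at 122, 89.3 and 135 CPM against 5.40, 6.25 and 8.65 CPM (log2 fold change 3.99 ± 0.17 (SE), edgeR adjusted p = 1.85e-08), and Folr2, a folate receptor, at 215, 183 and 199 CPM against 36.7, 49.5 and 48.3 CPM (log2 fold change 2.04 ± 0.16 (SE), edgeR adjusted p = 2.06e-06). Igf1 was lower, at 159.8, 65.9 and 150.1 CPM against 262, 302 and 311 CPM (log2 fold change -1.33 ± 0.23 (SE), edgeR adjusted p = 9.26e-04). C1q-high cells of the baseline heart held Lyve1 at 595 CPM, Cd163 at 606 CPM and Timd4 at 76.9 CPM, all above the Saa3 Arg1 Fn1 cells. They held Prg4 at 6.65 CPM, Serpinb2 at 3.36 CPM, Cd5l at 0.654 CPM and F5 at 2.27 CPM, all below them. The baseline values come from 1 library and were not tested.

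The coagulation list, which pairs clotting factors with regulators of fibrinolysis, had 8 of 12 tested genes higher and 1 lower, with a median of 1.31. F5 and Serpinb2, both among the higher genes, are also on the serous cavity list, so the counts of the lists are not independent. F3 and Serpinb2 passed the count filter only through the Saa3 Arg1 Fn1 cells, so a lower call was not open to them. F7, the factor that starts clotting on tissue factor, was at 145, 114 and 127 CPM against 5.40, 1.79 and 4.27 CPM (log2 fold change 4.99 ± 0.19 (SE), edgeR adjusted p = 8.05e-09). F10, which F7 activates, was at 314, 176 and 236 CPM against 14.4, 3.74 and 5.90 CPM (log2 fold change 4.92 ± 0.19 (SE), edgeR adjusted p = 6.88e-09). F3, tissue factor itself, was low in both, at 5.65, 5.86 and 6.77 CPM against 0.284, 0.0846 and 0.228 CPM (log2 fold change 4.73 ± 0.51 (SE), edgeR adjusted p = 2.88e-05). F3 and F7, the factors of the extrinsic pathway, and F10 and F5, of the common pathway, each stood higher in every infarct. Plau, urokinase, was lower, at 3.99, 7.32 and 3.58 CPM against 13.9, 14.6 and 13.1 CPM (log2 fold change -1.81 ± 0.23 (SE), edgeR adjusted p = 8.95e-05).

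Of 11 complement genes other than C1q, 7 were higher and 2 lower, with a median of 1.40. Cfp, properdin, was at 533, 474 and 569 CPM against 115, 113 and 118 CPM (log2 fold change 2.04 ± 0.13 (SE), edgeR adjusted p = 5.10e-07). C4b was at 586, 275 and 365 CPM against 61.3, 67 and 62.3 CPM (log2 fold change 2.50 ± 0.22 (SE), edgeR adjusted p = 5.43e-06). The list also holds the chains of complement receptor 3, and Itgam, its alpha chain, was the member with the highest fold (2.71 ± 0.17, SE). C5ar2, a receptor for C5a, was lower (-1.28 ± 0.19, SE), as was C3ar1, and without infarct 2 the list had 1 lower gene of 11. Of 15 acute-phase and antimicrobial genes, 9 could be tested and 7 were higher, with a median of 2.91. Lbp, the lipopolysaccharide binding protein, was at 36.4, 55.6 and 61.9 CPM against 1.20, 1.42 and 2.03 CPM (log2 fold change 4.88 ± 0.17 (SE), edgeR adjusted p = 4.09e-09). Hp, haptoglobin, was at 308, 99.6 and 177 CPM against 16.4, 7.45 and 8.54 CPM (log2 fold change 4.03 ± 0.17 (SE), edgeR adjusted p = 1.27e-08), with infarct 1 highest. Saa1, Saa2, Ltf, Camp, Ngp and Hamp were too low to be tested. Against the Ly6c2 cells described below, 4 of 8 tested genes of this list were higher, with a median of 0.35. There 3 genes, Lcn2, Hp and Chil3, were lower in the Saa3 Arg1 Fn1 cells.

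Glycolysis and hypoxia genes were broadly higher, 21 of 25 tested with 1 lower and a median of 1.18. Ldha, lactate dehydrogenase A, was at 962, 852 and 759 CPM against 246, 221 and 227 CPM (log2 fold change 1.74 ± 0.14 (SE), edgeR adjusted p = 2.01e-06). Pgk1, phosphoglycerate kinase, was at 624, 564 and 393 CPM against 127, 99.5 and 100.2 CPM (log2 fold change 2.11 ± 0.14 (SE), edgeR adjusted p = 4.42e-07), and Slc16a3, the lactate exporter MCT4, at 257, 135 and 116 CPM against 34, 21.3 and 24.2 CPM (log2 fold change 2.48 ± 0.15 (SE), edgeR adjusted p = 3.01e-07). Hif1a, the oxygen-sensitive subunit of the hypoxia-inducible factor, was at 366, 297 and 302 CPM against 114, 96.5 and 87.5 CPM (log2 fold change 1.56 ± 0.12 (SE), edgeR adjusted p = 2.32e-06). Egln3 and Ankrd37, targets of that factor, were highest in infarct 1. Egln3, a prolyl hydroxylase, was at 66.3, 8.79 and 9.36 CPM against 2.84, 0.79 and 1.84 CPM (log2 fold change 3.48 ± 0.40 (SE), edgeR adjusted p = 4.51e-05), and Ankrd37 at 94.5, 24.9 and 34 CPM against 8.81, 3.31 and 4.66 CPM (log2 fold change 3.00 ± 0.18 (SE), edgeR adjusted p = 2.92e-07). Bnip3 was at 139.7, 35.1 and 34.4 CPM against 26.7, 23.6 and 25.1 CPM and passed only without infarct 3 among the fits that left out an infarct (edgeR adjusted p = 0.017 with all 3 and 3.03e-10 without it). Pfkfb4 was lower (-1.08 ± 0.17, SE), a call lost without infarct 2 (edgeR adjusted p = 0.0126). Without infarct 2, 15 of 26 genes of the list were higher and none lower.

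Vegfa, the angiogenic growth factor and a hypoxia target, was at 52.9, 16.1 and 28.5 CPM against 8.41, 6.62 and 13.9 CPM (log2 fold change 1.65 ± 0.30 (SE), edgeR adjusted p = 0.0012). It was highest in infarct 1, and the groups did not overlap. The call was lost without infarct 2 (edgeR adjusted p = 0.018) and against all other cells of each library (edgeR adjusted p = 0.0132). In the arginine and polyamine list, 4 of 13 tested genes were higher and 2 lower, with a median of 0.33, and without infarct 2 these counts were 2 and 0. Over all genes tested with the 3 infarcts, 12.4% were higher and 10% lower. Slc7a2, the cationic amino acid transporter that brings arginine into macrophages, was at 263, 202 and 196 CPM against 2.84, 1.38 and 2.10 CPM (log2 fold change 6.59 ± 0.16 (SE), edgeR adjusted p = 2.75e-10). Its relative Slc7a1 was also higher (1.59 ± 0.21, SE). Odc1, which takes ornithine to polyamines, was at 41.6, 82 and 52.8 CPM against 39.1, 36.7 and 36 CPM and did not pass (edgeR adjusted p = 0.067), except without infarct 1 (edgeR adjusted p = 3.48e-04). Nos2 was too low to be tested.

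Chemokines split by member, with 6 of 18 higher and 7 lower and a median of -0.22 (-0.08 without infarct 1 and -0.41 without infarct 2). Beside these counts, 12.4% of all genes tested were higher and 10% lower. Ccl24, the eosinophil attractant eotaxin 2, was at 279, 365 and 282 CPM against 6.82, 3.95 and 5.62 CPM (log2 fold change 5.68 ± 0.19 (SE), edgeR adjusted p = 2.65e-09). Ccl6 was at 3967, 5427 and 4618 CPM against 445, 232 and 263 CPM (log2 fold change 3.80 ± 0.24 (SE), edgeR adjusted p = 3.83e-07), and Ccl9 was higher as well (2.66 ± 0.16, SE). Ccl12, a ligand of CCR2, was lower, at 69.6, 98.1 and 69.3 CPM against 448, 641 and 390.1 CPM (log2 fold change -2.76 ± 0.14 (SE), edgeR adjusted p = 6.28e-08), and Ccl4 was lower too (-2.56 ± 0.20, SE). Ccl2 was at 134, 638 and 179.6 CPM against 251, 231 and 159.6 CPM, overlapped between groups and did not pass (edgeR adjusted p = 0.86), except without infarct 1 (edgeR adjusted p = 3.82e-05). Of the chemokine receptors, Cx3cr1 was lower, at 159.6, 93.7 and 114 CPM against 758, 729 and 784 CPM (log2 fold change -2.76 ± 0.18 (SE), edgeR adjusted p = 4.96e-07), and Ccr1 was higher (2.04 ± 0.14, SE).

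Among 15 genes of the interleukin-1 family and other cytokines, 3 were higher and 2 lower, and the median was -0.21. Without infarct 1, 4 were lower. Over all genes tested with the 3 infarcts, 12.4% were called higher and 10% lower, so the counts of 3 and 2 say little about this list as a whole. Il6 was low but higher, at 13.1, 30.8 and 31.7 CPM against 0.743, 0.48 and 0.455 CPM (log2 fold change 5.23 ± 0.38 (SE), edgeR adjusted p = 1.10e-06). Il1b and Tnf, which drive early inflammation, were both lower: Il1b was at 285, 237 and 161 CPM against 680.4, 720.2 and 582 CPM (log2 fold change -1.70 ± 0.16 (SE), edgeR adjusted p = 8.16e-06), and Tnf had a log2 fold change of -1.93 ± 0.17 (SE). Il1a was higher (2.98 ± 0.30, SE). Ptges, prostaglandin E synthase, was at 26.7, 10.2 and 11.7 CPM against 0.262, 0.24 and 0.315 CPM (log2 fold change 5.67 ± 0.39 (SE), edgeR adjusted p = 7.18e-07). It passed the count filter only through the Saa3 Arg1 Fn1 cells, so a lower call was not open to it. Ltc4s, leukotriene C4 synthase, was at 978, 742 and 997 CPM against 49.7, 35.3 and 39.8 CPM (log2 fold change 4.30 ± 0.15 (SE), edgeR adjusted p = 4.09e-09). Ptgs2 was at 31.7, 65.9 and 30.9 CPM and 32.3, 27.7 and 33.2 CPM and did not pass (edgeR adjusted p = 0.65).

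MHC class II genes, which present antigen to helper T cells, were lower without exception, 7 of 7 with a median of -2.27. H2-Aa was at 1740.2, 521 and 625 CPM against 4452, 3738 and 3581 CPM (log2 fold change -2.37 ± 0.28 (SE), edgeR adjusted p = 5.32e-05). Cd74, the invariant chain, was at 4351, 1392 and 1719.9 CPM against 10609, 9078 and 9544 CPM (log2 fold change -2.30 ± 0.29 (SE), edgeR adjusted p = 8.69e-05). In these cells both were about 3 times higher in infarct 1 than in infarct 2, but every infarct lay below every C1q-high value. Of 15 reparative and TREM2-associated genes, 11 were lower and none higher, with a median of -1.92. Apoe was at 14957, 5922 and 12439 CPM against 37745, 46918 and 42502 CPM (log2 fold change -2.17 ± 0.34 (SE), edgeR adjusted p = 4.38e-04), and Trem2, a lipid receptor, at 438, 368 and 466 CPM against 944, 1059.5 and 1030.1 CPM (log2 fold change -1.39 ± 0.16 (SE), edgeR adjusted p = 4.14e-05). Gpnmb was lower as well (-1.92 ± 0.13, SE). Spp1, osteopontin, was at 1115, 1869.9 and 386 CPM against 1114, 1077 and 916 CPM and did not pass (edgeR adjusted p = 0.46). Interferon response genes were lower in 7 of 10 and higher in none, with a median of -1.05 (4 of 10 and a median of -0.54 without infarct 3), among them Ifit3 (-2.37 ± 0.26, SE) and Cxcl10 (-2.35 ± 0.18, SE).

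The genes with the lowest folds included several membrane proteins of macrophages. Fcrls, an Fc receptor-like protein, was at 80.2, 73.2 and 47.8 CPM against 724, 934 and 772 CPM (log2 fold change -3.74 ± 0.19 (SE), edgeR adjusted p = 7.85e-08). Ms4a7 was at 306, 284 and 196 CPM against 2428, 3338 and 3005 CPM (log2 fold change -3.63 ± 0.22 (SE), edgeR adjusted p = 2.66e-07). Both were lower in each infarct, and the groups did not overlap. Log2 fold changes were -3.60 ± 0.25 for Rapsn, -3.46 ± 0.17 for the prostaglandin-degrading enzyme Hpgd, -3.41 ± 0.19 for the lysophosphatidylserine receptor Gpr34, -3.36 ± 0.15 for Olfml3 and -3.33 ± 0.21 for Cd72 (SE, edgeR). Sh2d1b1, Ms4a14 and Slamf7 had -3.35 ± 0.20, -3.31 ± 0.24 and -3.19 ± 0.21 (SE). Cardiomyocyte transcripts, which can reach macrophages as free RNA or with engulfed debris, were lower in 6 of 7 and summed to 6.17 to 11.7 CPM against 43.3 to 68.9 CPM. The B cell markers Ighm and Cd79b were lower too, and the 6 markers summed to 22.0 to 54.7 CPM against 249 to 275 CPM. The part of free RNA in these differences was not tested.

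Matrix genes were mixed, with 6 of 15 tested higher, 3 lower (1 without infarct 2 and 5 without infarct 3) and a median of 0.39, which was 1.28 without infarct 1 and -0.45 without infarct 3. Thbs1, thrombospondin 1, was at 869.8, 1479 and 1138 CPM against 115, 94.1 and 103 CPM (log2 fold change 3.31 ± 0.18 (SE), edgeR adjusted p = 1.08e-07). Emilin2 was at 522, 761 and 647 CPM against 73.3, 50.8 and 61.1 CPM (log2 fold change 3.23 ± 0.17 (SE), edgeR adjusted p = 9.62e-08), and Ecm1 was higher (1.47 ± 0.16, SE). Postn was at 3.31, 5.86 and 32.2 CPM against 13.1, 8.89 and 8.66 CPM and did not pass (edgeR adjusted p = 0.97). Its high value was in infarct 3, where the fibroblast markers also summed highest, and it passed as higher without infarct 1 (edgeR adjusted p = 1.19e-07) and as lower without infarct 3 (edgeR adjusted p = 4.85e-04). Of 13 integrins tested, 6 were higher and 3 lower, with a median of 0.54. For this list and the matrix list the shares over all genes tested were 12.4% higher and 10% lower. Itgam (CD11b) was at 1088, 1751 and 1364 CPM against 199, 164 and 206 CPM (log2 fold change 2.71 ± 0.17 (SE), edgeR adjusted p = 3.90e-07), and its partner chain Itgb2 was higher (1.47 ± 0.13, SE). Itgax, the CD11c chain, was lower (-2.48 ± 0.19, SE). Itga5, the fibronectin receptor chain, was at 46.8, 57.1 and 35.6 CPM against 49.3, 42.1 and 42.4 CPM and did not pass (edgeR adjusted p = 0.45).

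Among 16 scavenger and phagocytic receptors tested, 5 were higher and 6 lower (3 without infarct 2). Here and for the other lists of this paragraph, 12.4% of all genes tested were higher and 10% lower. Olr1, a receptor for oxidized lipoprotein, was at 95, 52.7 and 90.4 CPM against 1.68, 0.536 and 1.40 CPM (log2 fold change 5.94 ± 0.17 (SE), edgeR adjusted p = 9.92e-10). Clec4e, the C-type lectin Mincle, Cd36 and Msr1 were higher, with log2 fold changes of 3.22 ± 0.14, 2.65 ± 0.17 and 2.53 ± 0.14 (SE). Fcgr1 was lower (-1.32 ± 0.14, SE). In the interleukin-4 type list 5 of 11 genes were higher and 3 lower, with a median of 0.56 that was 1.07 without infarct 1 and -0.07 without infarct 3. Retnla stood at 118, 0 and 177 CPM against 7.54, 11.4 and 3.99 CPM, with no UMI in the Saa3 Arg1 Fn1 cells of infarct 2 and a call lost by DESeq2 (adjusted p = 0.329). The macrophage identity list had Itgam higher and 5 of 10 genes lower (3 without infarct 2), among them Cd68 (-1.30 ± 0.15, SE) and Adgre1 (-0.99 ± 0.15, SE).

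Proliferation differed between the infarcts. Of 10 cell cycle genes edgeR called 0 over the 3 infarcts (1 at an unadjusted p under 0.05), as did DESeq2, and 10 of 10 as higher without infarct 1. Mki67, the Ki-67 proliferation antigen, was at 18.9, 89.3 and 119 CPM in Saa3 Arg1 Fn1 cells against 41.8, 39.2 and 51.7 CPM in C1q-high cells (edgeR adjusted p = 0.57). Top2a, the topoisomerase of dividing cells, was at 13.8, 87.9 and 122 CPM against 40.7, 39.8 and 43.1 CPM (edgeR adjusted p = 0.65). Both were below the C1q-high cells in infarct 1 and above them in infarcts 2 and 3. Against Ly6c2 cells, 2 of 10 were higher with all infarcts and 9 of 10 without infarct 1. The difference between the infarcts rests on 1 heart of 1 kind and 2 of the other and was not tested.

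Saa3 Arg1 Fn1 cells were also compared with Ly6c2-positive cells of the same infarcts. These held at least 2 Ly6c2 UMIs, no Arg1 UMI, at most 1 Saa3 UMI and under 5 C1q UMIs per 10000, and numbered 340, 352 and 256. They are called Ly6c2 cells here, because genes of dendritic cells were present along with those of monocytes. Siglech, a marker of plasmacytoid dendritic cells, was at 107, 84.5 and 72.1 CPM in them, and the 7 dendritic cell markers summed to 169 to 230 CPM against 1.46 to 12.5 CPM. Over 9653 genes 2412 were called (25%), 1219 higher (12.6%) and 1193 lower (12.4%) in Saa3 Arg1 Fn1 cells. Levels that did not overlap were found for 50.9% of the genes. Without infarct 2 the count was 1443, and with cells thinned to 2000 UMIs it was 1476. This comparison and the one with C1q-high cells share the Saa3 Arg1 Fn1 cells, so their results are not independent.

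Against Ly6c2 cells, 15 of 15 tested genes of the serous cavity list were higher, with a median of 5.05. Garnl3 and Cxcl13 were too low to be tested. Genes nearly absent from Ly6c2 cells, such as Gata6, Vsig4, Prg4 and Alox15, passed the count filter only through the Saa3 Arg1 Fn1 cells. A lower call was not open to such genes, so the count for the list is a description. Prg4 was at 0.663, 0 and 1.80 CPM in Ly6c2 cells (log2 fold change 7.93 ± 0.33 (SE), edgeR adjusted p = 3.99e-09) and Alox15 at 0.332, 0 and 0.451 CPM (log2 fold change 8.49 ± 0.34 (SE), edgeR adjusted p = 3.99e-09). Gata6 and Vsig4 had no UMI in any of the 3 Ly6c2 sums. Against a floor of 3 UMIs over the pooled sums they were at least 46.8-fold and 103-fold higher in Saa3 Arg1 Fn1 cells, and the list median was 5.05 with both genes at these bounds. Of the resident list 9 of 10 genes were higher and 1, F13a1, was lower, which was not called without infarct 2 or infarct 3 (edgeR adjusted p = 0.0196 and 0.011). Ly6c2 cells were chosen by little C1q, which marks differentiated macrophages, so the count for this list is a description too. Lyve1 was at 0, 0 and 0.451 CPM (log2 fold change 9.98 ± 0.36 (SE), edgeR adjusted p = 1.50e-09), Cd5l at 1.33, 0.673 and 3.16 CPM (log2 fold change 8.52 ± 0.30 (SE), edgeR adjusted p = 1.50e-09) and Fcna at 1.66, 0.673 and 3.16 CPM (log2 fold change 7.36 ± 0.27 (SE), edgeR adjusted p = 1.50e-09). Jam2, Car6 and Ltc4s were the other genes with the highest folds (6.98, 6.61 and 6.32).

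Genes that mark monocytes were lower in Saa3 Arg1 Fn1 cells, 10 of 11 tested with none higher and a median of -1.95. The Ly6c2 cells were chosen by a monocyte gene and by little C1q. The direction of this list thus lay partly in the choice of cells, and its count is a description. Plac8 was at 308, 287 and 154 CPM against 3269, 4539.6 and 3758 CPM (log2 fold change -4.13 ± 0.23 (SE), edgeR adjusted p = 2.76e-08). Ccr2 was at 562, 247 and 278 CPM against 1627, 1594 and 1468 CPM (log2 fold change -2.32 ± 0.22 (SE), edgeR adjusted p = 3.51e-06). F10, the remaining gene of the list, was at 214, 127 and 148 CPM in Ly6c2 cells and did not pass (edgeR adjusted p = 0.03). Against C1q-high cells the same list had 9 of 12 genes higher and 2 lower, with a median of 1.68 (4 higher and 4 lower against all other cells of each library), so these cells stood between the 2 groups for Vcan (2.63 and -3.12) and Ifitm6 (3.81 and -1.21), given as log2 fold changes against C1q-high and Ly6c2 cells. The Vcan call was lost against all other cells (edgeR adjusted p = 0.573). Ly6c2 itself, which chose the Ly6c2 cells, was at 38, 11.7 and 16.3 CPM in Saa3 Arg1 Fn1 cells.

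MHC class II genes were lower than in Ly6c2 cells as well, 7 of 7 with a median of -1.74. H2-DMb1 was at 138, 51.2 and 94.2 CPM against 442, 425 and 363 CPM (log2 fold change -2.24 ± 0.23 (SE), edgeR adjusted p = 6.67e-06). Il1b was at 1726, 2962 and 1373 CPM in Ly6c2 cells (log2 fold change -3.22 ± 0.21 (SE), edgeR adjusted p = 1.44e-07), and 9 of 14 tested cytokine genes were lower and 3 higher. In the glycolysis and hypoxia list 7 of 25 genes were higher and 2 lower, with a median of 0.47, and 4 were higher without infarct 2, 2 without infarct 3 and 0 without the block. Ldha was at 608, 394 and 367 CPM in Ly6c2 cells (log2 fold change 0.80 ± 0.15 (SE), edgeR adjusted p = 9.30e-04), a call lost without infarct 3 (edgeR adjusted p = 0.0114), and Hif1a was at 393, 307 and 225 CPM and did not pass (edgeR adjusted p = 0.86). Whether the list moved less here than against C1q-high cells was not tested. F7 was higher (4.22 ± 0.23, SE), Thbd, thrombomodulin, was lower (-1.02 ± 0.19, SE), and Slc7a2 was at 3.65, 0 and 4.96 CPM in Ly6c2 cells (log2 fold change 6.22 ± 0.35 (SE), edgeR adjusted p = 3.27e-08). Siglech, Cd7, Mmp8 and Ly6d had the lowest folds (-8.50, -8.20, -5.52 and -5.29), followed by Dmkn, Ifitm1, Klrd1 and Gpr171 (-4.70, -4.62, -4.58 and -4.52).

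The Saa3 Arg1 Fn1 cells were not uniform, and those with a UMI of Gata6, Selp, Icam2 or Prg4 were compared with the rest. Cells of at least 4000 UMIs were thinned to 4000 and then divided, which gave 257 cells with and 455 without in infarct 1, 27 and 33 in infarct 2, and 178 and 230 in infarct 3. This draw was separate from that of the shares above, so the numbers differ slightly. Over 7189 genes 118 were called (1.64%), 57 higher (0.793%) and 61 lower (0.849%) in the cells with a UMI. The count rested on the infarct as a block, since without it 1 gene was called, and on infarct 1, without which there were 37. By the DESeq2 Wald test it was 30. Groups that did not overlap were found for 10.3% of the genes. With 27 and 33 cells in the sums of infarct 2, single UMIs weigh heavily there.

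Cells with a UMI of the 4 genes held more of 3 other serous cavity genes. Serpinb2 was at 192, 596 and 501 CPM in them and 10.9, 135 and 78.3 CPM in the rest (log2 fold change 3.00 ± 0.22 (SE), edgeR adjusted p = 5.09e-09). F5 was at 152, 212 and 212 CPM and 26.8, 23.9 and 39.2 CPM (log2 fold change 2.51 ± 0.19 (SE), edgeR adjusted p = 5.09e-09), and was the only gene called without the block. Alox15 was at 275, 28.8 and 375 CPM and 21.1, 39.8 and 52.6 CPM (log2 fold change 3.13 ± 0.24 (SE), edgeR adjusted p = 5.09e-09), higher in infarcts 1 and 3 but not in infarct 2, and not called by DESeq2 (adjusted p = 0.845). Of 10 tested genes of the serous cavity list these 3 passed, and 6 of 12 without infarct 2 and 5 of 9 without infarct 3. Vsig4 and Timd4 did not (edgeR adjusted p = 0.97 and 0.89). Slpi was at 1088, 2308 and 2935 CPM and 226, 1249 and 717 CPM (log2 fold change 1.82 ± 0.16 (SE), edgeR adjusted p = 8.95e-08), whereas Marco was at 157, 2519.5 and 1328 CPM and 217, 1782 and 672 CPM and did not pass (edgeR adjusted p = 0.32). Cd24a, a surface glycoprotein, Fgfr1, a fibroblast growth factor receptor, and Itga6, a laminin receptor chain, were higher in each infarct (2.36 ± 0.22, 1.87 ± 0.20 and 1.50 ± 0.15, SE). The other genes with the highest folds were Klk8 (2.09), Rab27a (1.67) and Nfe2 (1.65), which were not called without infarct 1 (edgeR adjusted p = 0.059, 0.0279 and 0.0485).

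**Figure D5:**
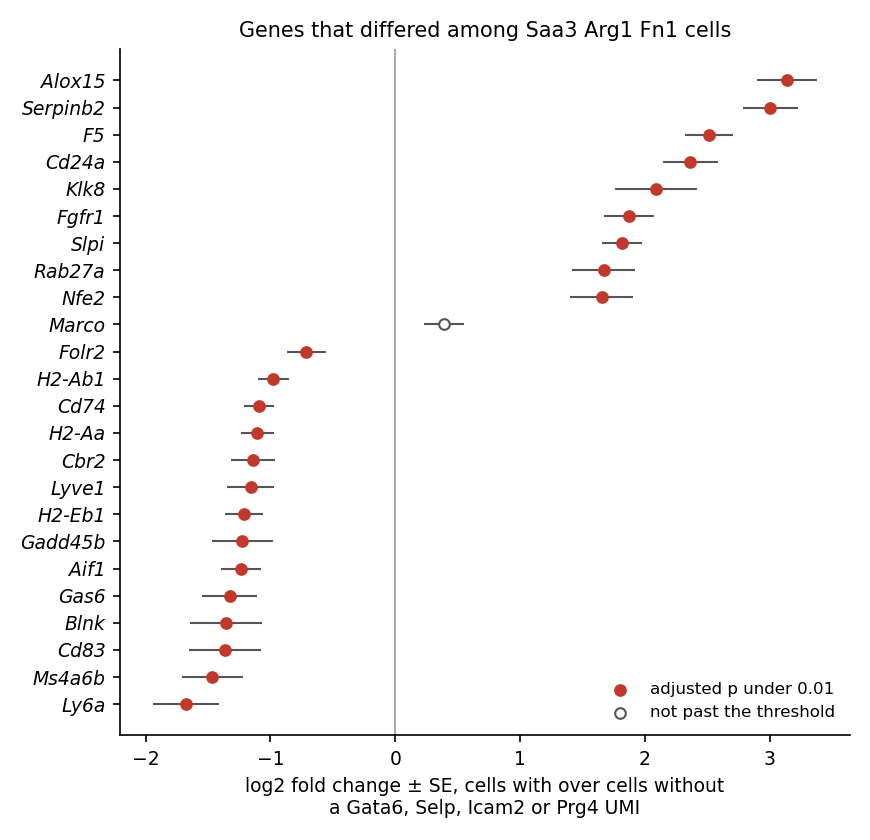
Log2 fold change ± SE (horizontal axis) between Saa3 Arg1 Fn1 cells with and without a UMI of Gata6, Selp, Icam2 or Prg4, for genes named in the text, filled where adjusted p is under 0.01. Alox15, Serpinb2 and F5 lie furthest to the right, Ly6a furthest to the left (-0.06 with cells thinned to 6000 UMIs), and Marco does not pass.

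Some resident and MHC class II genes were lower in the cells with a UMI, in calls that several alternatives did not keep. Of 10 resident genes 7 were lower and none higher, with a median of -0.92. Lyve1 was at 69.7, 28.8 and 141 CPM and 159, 255 and 258 CPM (log2 fold change -1.16 ± 0.19 (SE), edgeR adjusted p = 3.58e-04), a call lost without infarct 1 (edgeR adjusted p = 0.0557). F13a1 was at 211, 144 and 155 CPM and 498, 302 and 338 CPM (log2 fold change -1.17 ± 0.14 (SE), edgeR adjusted p = 8.97e-06). Both lay lower in each of the 3 infarcts. Without infarct 1, 1 of the 10 resident genes was called, by DESeq2 2 and without the block 0. Cd163 did not pass (edgeR adjusted p = 0.89). Of the MHC class II genes 4 of 7 were lower, with a median of -0.98, among them H2-Aa at 1058, 298 and 283 CPM and 1903, 612 and 788 CPM (log2 fold change -1.10 ± 0.13 (SE), edgeR adjusted p = 1.04e-05). With cells thinned to 6000 UMIs 0 of 7 were called (median -0.69), H2-Aa at an edgeR adjusted p of 0.0414, and without the block 0 of 7 as well. Ccr2 was lower as well, at 389, 125 and 176 CPM and 624, 406 and 404 CPM (log2 fold change -0.98 ± 0.15 (SE), edgeR adjusted p = 2.16e-04). Ly6a, the surface antigen Sca-1, had the lowest fold (-1.67), but its log2 fold change was -0.06 with cells thinned to 6000 UMIs (edgeR adjusted p = 0.988), and it was not called with cells thinned to 2000 (edgeR adjusted p = 0.177), with doublets removed (edgeR adjusted p = 0.0166) or without the block (edgeR adjusted p = 0.0685). It was followed by Ms4a6b, Cd83, Blnk and Gas6 (-1.47, -1.36, -1.36 and -1.33) and by Aif1, Gadd45b and H2-Eb1 (-1.24, -1.23 and -1.21). Of these, Ly6a, Ms4a6b, Cd83, Blnk, Gas6 and Gadd45b were not called without infarct 1 (edgeR adjusted p = 0.0376, 0.0202, 0.257, 0.104, 0.142 and 0.022), and Ms4a6b, Blnk and Gadd45b were not called without infarct 3 (edgeR adjusted p = 0.0132, 0.285 and 0.414). The 6 genes not called without infarct 1 were not called by DESeq2 either (adjusted p = 0.0969, 0.024, 0.24, 0.388, 0.0377 and 0.368).

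Other features of the Saa3 Arg1 Fn1 cells did not pass or passed in part. Of 25 glycolysis and hypoxia genes 0 were called by edgeR and 0 by DESeq2, 3 had an unadjusted p under 0.05, and their median was 0.13. Since edgeR called only 1.64% of all genes in this comparison, a count of 0 says little about these genes. Pgk1 was at 672, 721 and 395 CPM and 652, 517 and 373 CPM (edgeR adjusted p = 0.84). Coagulation genes were higher in 4 of 8 and lower in 1, the lower gene being F13a1, with 2 of 8 higher without infarct 1. F7 was at 251, 154 and 153 CPM and 105, 63.6 and 89.5 CPM (log2 fold change 1.09 ± 0.17 (SE), edgeR adjusted p = 1.92e-04) and Slc7a2 at 567, 259.6 and 235 CPM and 134, 159 and 159 CPM (log2 fold change 1.36 ± 0.21 (SE), edgeR adjusted p = 2.50e-04), and both calls were lost without infarct 1 (edgeR adjusted p = 0.181 and 0.281). Wfdc21 was higher (1.64 ± 0.18, SE), though not without infarct 1 (edgeR adjusted p = 0.0114).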

How the data were processed

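Hearts were digested and EGFP-positive, Ly6G-negative cells were sorted and sequenced with 10x 3' chemistry. The authors aligned reads and counted UMIs with Cell Ranger (3.1.0 per the file headers, 3.0.1 in the submitters' processing notes) on mm10, and deposited filtered matrices of whole-number UMI counts of 31053 genes per library, with no normalization and no cell type labels. Library totals were 71093963 UMIs at baseline and 92005369, 97944428 and 88157753 in the infarcts, and values near a few UMIs of a sum are imprecise. Groups were taken from the sample titles.

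After the filter on UMIs (500 to 40000) and genes (over 200), 10238, 10396, 10782 and 10117 cells remained. The cell rule, the comparators, the gene lists and the ranking of genes were chosen with earlier results of these data known. Because cells are not replicates, counts were summed per library and group, mitochondrial genes and the genes that chose the cells were left out, and edgeR 4.0.16 (R 4.3.3; TMM scaling, filterByExpr, quasi-likelihood test) was fitted to all genes with the infarct as a block, because each heart gave both of the sums compared. P-values were adjusted by Benjamini-Hochberg over all genes tested and called under 0.01. SE is the log2 fold change over the square root of F. The split was made after thinning to 4000 UMIs, with its 4 genes left out. Named genes were the 15 highest and 10 lowest folds among called genes of at least 50 CPM against C1q-high cells and the 8 highest and 8 lowest in the other comparisons, each moving the same way in every infarct (predicted and mitochondrial genes, Y-linked genes and Xist left out). From each list the rule took 2 to 4 called genes of largest fold, and genes with a defining role that missed the threshold. The text departs from it for the lists: which list genes are described was chosen after their values were seen, and not always by largest fold. Some genes of the lists are counted but not reported here by name. Alternatives were DESeq2 1.42.0 (size factors, Wald test), no count filter, no block, each infarct left out, other depths, rules and comparators, and Scrublet doublets removed (scanpy 1.11.5). A further pair, Saa3 Arg1 Fn1 cells with C1q of at least 30 per 10000 and those without a UMI of the 4 genes, was chosen after seeing the data. On data simulated on the comparison with C1q-high cells (12200 genes), 63.8% of genes changed by 1 log2 unit and 88.3% changed by 2 were recovered. Promoter and motif letters came from RefSeq (GRCm38.p6), which was not compared with the alignment build base by base. Figures used matplotlib 3.10.9.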

Additional observations from a re-analysis of the deposited data

How the results depend on the processing

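Against C1q-high cells 2789 genes became 1435 to 3643 over the 3 fits that left out an infarct. Against Ly6c2 cells 2412 genes became 1443 to 2703, and 1476 with cells thinned to 2000 UMIs. The comparison within the Saa3 Arg1 Fn1 cells, with 118 genes, gave 37 to 155 without an infarct, 30 by the DESeq2 Wald test and 178 without the filter on low counts. Without the replicate block the 3 counts were 3036, 2079 and 1. The mean share of Saa3 Arg1 Fn1 cells was 2.58% to 6.46% without an infarct. The mean share with a UMI of Gata6, Selp, Icam2 or Prg4 was 51.1% to 59.0% without an infarct and 43.8% in thinned cells. Against all other cells of each library in place of C1q-high cells, Lcn2, Plac8 and S100a8 turned from higher to lower (log2 fold changes -0.94, -0.64 and -1.62).

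Of 220 called genes followed against C1q-high cells, 148 kept direction and call in every alternative, as did 135 of 193 against Ly6c2 cells and 1 of 61 in the split. The values behind these total 3948, 1716 and 604, of which 179, 151 and 201 lost the call and 3 turned direction. With 67 Saa3 Arg1 Fn1 cells in infarct 2, 1 UMI was worth 1.46 CPM there. The cause of these changes was not tested.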

Other observations

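Of 25 transcription factors, 8 were higher and 5 lower in Saa3 Arg1 Fn1 cells than in C1q-high cells. Among all genes tested the shares were 12.4% higher and 10% lower. Bhlhe40, a repressor known from large peritoneal macrophages, was at 195, 169.9 and 175 CPM against 25.3, 15 and 15.7 CPM (log2 fold change 3.16 ± 0.13 (SE), edgeR adjusted p = 1.44e-08). Klf2 was at 1092, 918 and 845 CPM against 259, 302 and 206 CPM (log2 fold change 1.77 ± 0.16 (SE), edgeR adjusted p = 6.89e-06). Cebpb, which binds the C/EBP motif, was at 1715, 1844 and 1383 CPM against 676, 637 and 698 CPM (log2 fold change 1.14 ± 0.15 (SE), edgeR adjusted p = 1.36e-04). The groups did not overlap for these 3. Irf4 and Rxra were higher as well (1.85 ± 0.23 and 1.27 ± 0.14, SE). Atf3, a stress-induced repressor, was lower, at 217, 116 and 227 CPM against 642, 639.9 and 786 CPM (log2 fold change -2.03 ± 0.19 (SE), edgeR adjusted p = 8.82e-06). Maf, which is typical of tissue macrophages, did not pass (edgeR adjusted p = 0.15), and it passed as lower without infarct 1 (edgeR adjusted p = 0.0044). The number of lower factors was 8 without infarct 1, 1 without infarct 2 and 2 without infarct 3.

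Of 11 metalloproteinases and inhibitors, 6 were higher and 3 lower, beside 12.4% and 10% of all genes tested. Mmp9, gelatinase B, was at 37.9, 11.7 and 19.1 CPM against 1.03, 1.96 and 1.02 CPM (log2 fold change 4.14 ± 0.40 (SE), edgeR adjusted p = 1.12e-05), and against all other cells of each library it did not pass (edgeR adjusted p = 0.0699). Mmp12, the macrophage elastase, was at 23.4, 2.93 and 23.3 CPM against 50.7, 45.8 and 57.9 CPM (log2 fold change -1.52 ± 0.24 (SE), edgeR adjusted p = 5.08e-04). Adam15 and Mmp19 were higher in every infarct (1.48 ± 0.12 and 1.67 ± 0.18, SE). In the NRF2 and haem list 4 of 12 genes were higher and 2 lower, beside the same shares of all genes. Srxn1, sulfiredoxin, was at 37.6, 30.8 and 26.5 CPM against 13.7, 12 and 12.6 CPM (log2 fold change 1.17 ± 0.16 (SE), edgeR adjusted p = 1.77e-04). Hmox1, haem oxygenase 1, was highest in infarct 1, at 1068, 353 and 226 CPM against 201, 166 and 157 CPM (log2 fold change 1.21 ± 0.29 (SE), edgeR adjusted p = 0.0073), and was not called without infarct 2 (edgeR adjusted p = 0.06). Slc40a1, the iron exporter ferroportin, was lower, at 8.40, 0 and 3.98 CPM against 27.7, 30.2 and 31.5 CPM (log2 fold change -2.49 ± 0.32 (SE), edgeR adjusted p = 1.07e-04).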
